A study of Vulpes vulpes with 48 samples.

Results

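Among the genes measured in the prefrontal cortex of tame silver foxes, 200 were far lower in 5 of the 12 tame libraries than in the 7 others, and these 200 genes are described here across 24 cortex and 22 basal forebrain libraries. They were chosen from the deposited cortex counts. CPM is the count of a gene per 1000000 counts of its library, and 9624 of 12808 cortex genes reached a mean of 10 CPM in aggressive foxes. For each of these the mean of log2(CPM+1) over 5 tame libraries (ID187, ID191, ID182, ID190 and ID186) was set against the mean over the other tame libraries, and the 200 genes with the most negative difference are the members. The 5 libraries, called shifted below, were set apart by their measured values and not by any label, so all values of the members within tame cortex describe the choice and carry no test.

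The foxes (Vulpes vulpes) came from a line selected for tame behaviour or a line selected for aggressive behaviour, and the labels give them as males aged 1.5 years. Poly(A) RNA of the right prefrontal cortex or the right basal forebrain was sequenced in bulk. The cortex was represented by 12 tame and 12 aggressive libraries, and the forebrain by 10 tame and 12 aggressive libraries; 2 further tame forebrain samples of the labels were not analysed here. Each library has its own identifier, but the labels do not state which cortex and forebrain libraries share a fox, so p-values measure the spread between libraries.

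The prefrontal cortex weighs and restrains behavioural responses, and the basal forebrain holds the cholinergic neurons that project to it. The level of a transcript in bulk tissue depends on how many cells make it and how much each makes. Fewer cells of a type and less RNA per cell cannot be told apart in these libraries. The files give dog Ensembl gene identifiers and pair none with a name, and 0 of 13202 identifiers matched the fox gene table at hand. The members are therefore reported by identifier without known function, and neither the fixed pathway lists nor the tissue markers could be looked up, so the tissue labels were not checked.

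A cortex library held between 6.23 and 17.2 M counts (M stands for 1000000), and a forebrain library between 6.25 and 13.6 M. The shifted libraries held 8.65 to 15.5 M counts, within the range of the other cortex libraries. All 200 members were also in the forebrain table, and all passed the filters on low counts in both tests below. A member had a median of 79 counts in a shifted library and 993.5 in one of the other 19 cortex libraries, and the lowest count of any member was 2 in a shifted library and 68 elsewhere. Some counts were fractions for 8 members (4%, against 4.80% of the 9624 genes). The values of 4 members (2%, against 4.29% of the 9624 genes) were the same as those of another gene in every cortex library. Reads of near-identical genes could thus be shared. Each of these 4 had its double among the members, so the 200 members are not all distinct profiles.

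The difference between shifted and other tame libraries was spread unevenly over the genes. Over all 9624 genes its median was -0.15 on the log2(CPM+1) scale, with quartiles of -1.19 and 0.42. It was under -1 in 2751 genes (28.6%) and over 1 in 9 genes. The members are the far end of this tail, from -4.88 to -3.05 with a median of -3.38; 12 members were under -4 and 65 more under -3.5. In plain CPM, the mean of the 7 other tame libraries was 10.9 times the mean of the shifted ones in the median member, with a range of 6.34 to 36.2 times. The 2 members just inside the limit had differences of -3.053 and -3.047, and the 2 genes just outside had -3.044 and -3.043, so the limit falls on no gap.

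**Figure D1:**
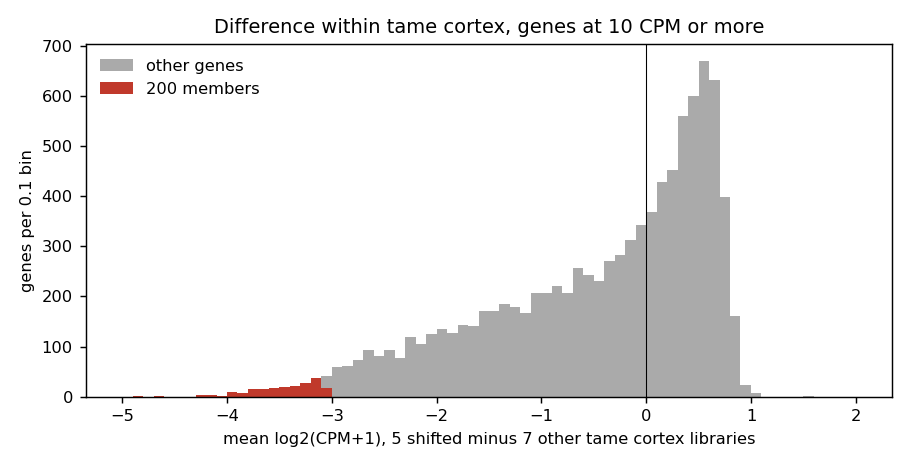
Number of genes (vertical axis) by their difference in mean log2(CPM+1) between the 5 shifted and the 7 other tame cortex libraries (horizontal axis, bins 0.1 wide), for 9624 genes. The 200 members, in red, form the end of a long tail below 0 that reaches -4.88, while the other side ends at 1.59.

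The members were spread over the levels of expression. In aggressive cortex they averaged from 12.1 to 814 CPM with a median of 89.4 CPM, against a median of 47.9 CPM over the 9624 genes. When those genes were split into 4 equal groups by this level, 9 members fell in the lowest group, 42 and 69 in the middle groups and 80 in the highest. Adding 1 to the CPM limits how far a gene of low level can fall on this scale, so these counts depend partly on the scale.

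The gene with the most negative difference was ENSCAFG00000000245. It stood at 1.37 CPM in shifted library ID187, 1.93 in ID182, 2.67 in ID191, 3.46 in ID190 and 6.01 in ID186. In the 7 other tame libraries it ran from 98.03 CPM through a median of 109 to 129.96 CPM, and in the 12 aggressive libraries from 70.4 through 99.2 to 123 CPM. All 5 shifted libraries thus lay far below every other cortex library, while the other tame and the aggressive libraries overlapped. In the forebrain the gene showed no such split, with a range of 54.2 to 120.03 CPM in tame (median 85.7, n = 10) and 56.1 to 109 CPM in aggressive foxes (median 92.3, n = 12).

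The gene next in rank, ENSCAFG00000003549, stood at 4.09 CPM in ID182, 4.87 in ID191, 6.18 in ID187, 7.59 in ID190 and 8.92 in ID186. It ran from 146 through a median of 196 to 205 CPM in the other tame cortex libraries and from 121 through 168 to 199 CPM in the aggressive ones. Here too the shifted libraries shared no part of the range of the others. Its forebrain levels, from 55.4 to 115 CPM in tame and from 54.6 to 121 CPM in aggressive foxes, overlapped almost entirely. Counts of both genes included fractions, so reads shared with other genes can enter these values.

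The same split held for all members as a description of the choice. In 200 of 200 members every shifted library lay below every one of the 12 aggressive libraries, as it did in 30% of the 9624 genes. In 200 of 200 members every shifted library also lay below all 7 other tame libraries, against 33.7% of the genes. Because tame cortex values chose the members, nothing can be read from these counts beyond the size of the fall.

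The 5 shifted libraries differed among themselves in how low the members were. Relative to the mean of the aggressive cortex libraries, the median member stood at -4.16 log2 units in ID187, -3.88 in ID191 and -3.54 in ID182, and at -2.70 in ID190 and -2.57 in ID186. The first 3 of these libraries were all below both others in 93% of the members. ID187 was the lowest of all 12 tame libraries for 140 members, ID191 for 52 and ID182 for 8. A level at least 16-fold below the aggressive mean was reached by 132 members in ID187, 79 in ID191, 32 in ID182, 3 in ID190 and 1 in ID186. At least 4-fold below were all 200 members in ID187, ID191 and ID182, 180 in ID190 and 178 in ID186. Of all 9624 genes, 25.6% were so low in ID187, 22.4% in ID191, 9.45% in ID182, 3.30% in ID190 and 4.04% in ID186. Genes at large were thus also lowest in ID187 and ID191, and the order of the libraries is not particular to the members. The range of a single member over the 5 shifted libraries had a median of 1.82 log2 units, against 0.41 over the 7 other tame libraries.

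Together the members made up 2.58% to 3.18% of all counts in the 7 other tame libraries and 2.31% to 3.16% in the 12 aggressive ones. In the shifted libraries their share was 0.121% in ID187 (95% Wilson interval 0.119% to 0.123%), 0.151% in ID191 (0.148% to 0.153%) and 0.208% in ID182 (0.206% to 0.210%). It was 0.449% in ID186 (0.445% to 0.454%) and 0.463% in ID190 (0.459% to 0.467%). These intervals cover counting error only. The fall in share therefore followed the same order as the medians except that ID186 and ID190, close to each other by either measure, changed places.

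The TMM scaling factor, from a trimmed mean of log ratios between libraries, was 0.748 in ID187 and 0.767 in ID191, lower than in any other cortex library, where the other 3 shifted libraries had 0.971 to 0.993. The median of all 9624 genes stood at -0.46 and -0.39 log2 units in ID187 and ID191, and between -0.04 and 0.02 in the other shifted libraries. With TMM-scaled library sizes the median member difference was -3.20 in place of -3.38. No RNA quality value or sequencing batch per library was used here, and the part of either in the fall was not tested.

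**Figure D2:**
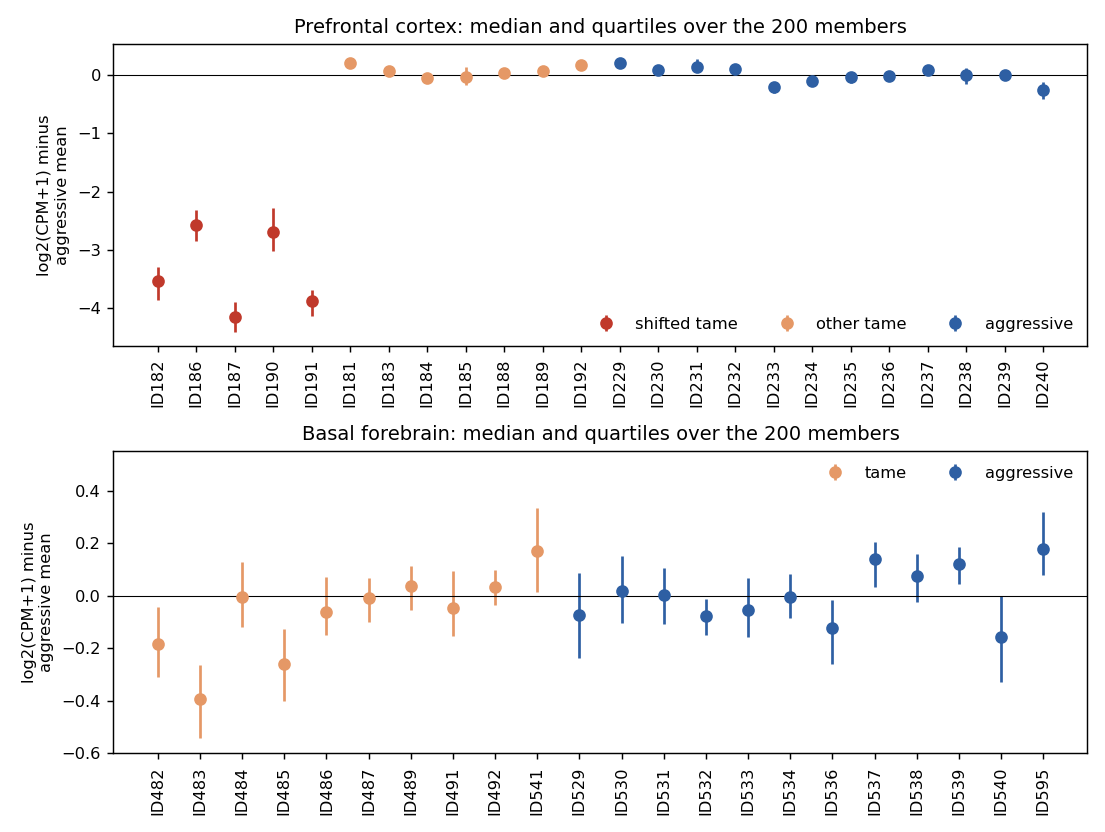
Median over the 200 members of log2(CPM+1) minus the mean of the aggressive libraries of the same tissue (vertical axis, points; bars span the quartiles over members) in each library (horizontal axis), with cortex above and forebrain below on a narrower scale. The 5 shifted cortex libraries sit between -4.16 and -2.57, and the 22 forebrain libraries between -0.39 and 0.18.

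Outside the shifted libraries the members stayed within a range that was narrow next to their fall in the shifted ones. Their median relative to the aggressive mean ran from -0.06 in ID184 to 0.21 in ID181 over the 7 other tame libraries. Over the 12 aggressive libraries it ran from -0.25 in ID240 to 0.21 in ID229. The median of all 9624 genes moved less, from -0.015 to 0.024 over the 7 other tame and from -0.024 to 0.034 over the aggressive libraries. In 0 of 200 members did all 7 other tame libraries lie above, or all below, the 12 aggressive libraries, and each of these patterns was seen in 0.0208% of the 9624 genes. The mean of the 7 other tame libraries minus the aggressive mean had a median of 0.064 over the members and 0.0014 over all genes. The rule used those 7 libraries, so the offset is given as a description, and how much of it the choice itself produces was not tested.

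The aggressive cortex libraries entered the choice only through the minimum level, and in them the members still varied together. The median Pearson correlation between 2 members over the 12 libraries was 0.60, against 0.016 between any 2 of the 9624 genes. Of the 200 members, 91.5% correlated above 0.5 with the mean of the other members, and 199 had a positive correlation. Among the remaining genes, 18.8% correlated above 0.5 with the member mean, and their median correlation was 0.046. The libraries at the ends of this shared variation were ID240 and ID233, where 91.5% and 96.5% of the members lay below the aggressive mean, and ID229, where 1.5% did. Relative to the same mean, the median of all 9624 genes was 0.019 in ID240, -0.024 in ID233 and 0.031 in ID229. The variation of the members is small: the SD of a member over the 12 libraries had a median of 0.18 log2 units, against 0.15 over all genes. All points of these correlations come from the same 12 libraries and share their totals.

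The gap between members and other genes was present in each of the 4 level groups. From the lowest group to the highest, the median correlation with the member mean was 0.77, 0.81, 0.79 and 0.78 for members. For other genes it was 0.091, 0.056, 0.072 and -0.058. Leaving out each aggressive cortex library in turn moved the median correlation between members to between 0.55 and 0.68.

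The members also varied together in the forebrain, from which no value entered the choice. The median correlation between 2 members was 0.35 over the 12 aggressive and 0.58 over the 10 tame forebrain libraries, where any 2 of the 9623 genes found there had 0.0066 and 0.014. Correlations above 0.5 with the mean of the other members were seen for 129 members (64.5%) in aggressive and 170 (85%) in tame forebrain. The corresponding shares of the remaining genes were 7.35% and 32.7%. Without library ID483, the tame forebrain library in which the members were lowest, the tame value was 0.43.

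Across all genes, the correlation with the member mean went step by step with the difference in tame cortex. The 9424 genes that are no members were ordered by that difference and split into 10 bins of equal size. In aggressive cortex the median correlation was 0.61 in the bin next to the members, whose median difference was -2.42. It was 0.32 in the third bin (median difference -1.09), -0.068 in the sixth (0.017) and -0.52 in the last (0.73). In aggressive cortex the value fell from each bin to the next. In the forebrain the values ran from 0.41 to -0.16 over aggressive and from 0.65 to -0.48 over tame libraries. Over aggressive forebrain libraries they changed little from the eighth bin (-0.17) on. Over tame forebrain libraries they fell up to the ninth bin (-0.50). The 200 genes with the most positive difference had medians of -0.54 in aggressive cortex, -0.13 in aggressive forebrain and -0.39 in tame forebrain.

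**Figure D3:**
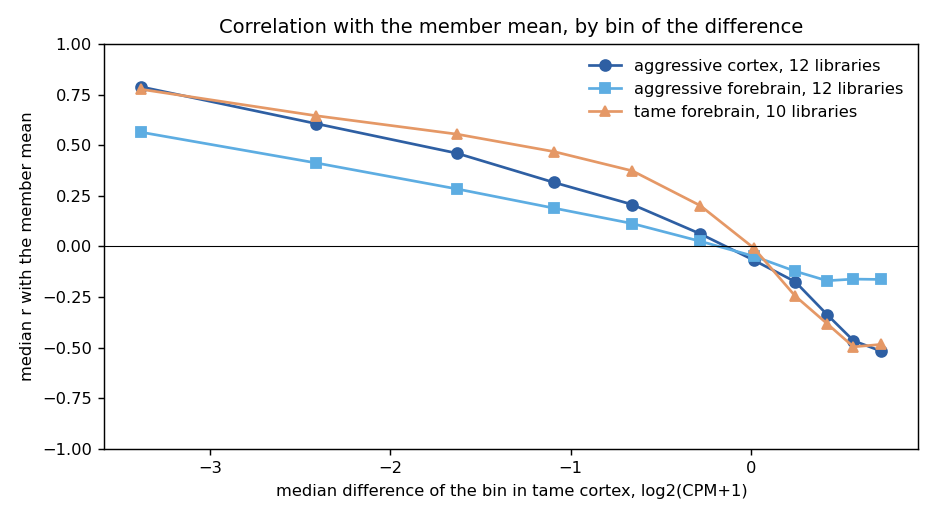
Median Pearson correlation of genes with the mean of the members (vertical axis) in bins of genes ordered by their difference in tame cortex (horizontal axis, median of the bin in log2(CPM+1)); the leftmost points are the 200 members, each against the mean of the others. The lines for aggressive cortex, aggressive forebrain and tame forebrain start at 0.79, 0.56 and 0.78 and end below 0.

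Whether the members differed between the lines in the basal forebrain was tested on all 12915 genes kept there (edgeR's quasi-likelihood test, p-values adjusted by the Benjamini-Hochberg method). At an adjusted p of 0.05, 0 of 200 members were called, where 0.0929% of all tested genes and 0.0832% of tested genes with the minimum cortex level were. DESeq2 and limma-voom also called 0. An unadjusted p under 0.05 was reached by 17 members (8.5%), all lower in tame foxes, against 11.5% of all tested genes in either direction and 5.8% lower in tame foxes. DESeq2 gave 20 such members and limma-voom 21.

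The log2 fold change of tame over aggressive forebrain had a median of -0.065 over the members, from -0.40 to 0.20, and was below 0 in 150 of 200. Over the tested genes with the minimum level the median was -0.00079 and 50.3% were below 0. The members varied together in these libraries, with a median correlation of 0.35 in aggressive and 0.58 in tame forebrain. Counts of members in a direction are therefore not counts of separate observations. The count below 0 ran from 133 to 163 when 1 library was left out. The median, and the count of members with an unadjusted p under 0.05, moved more with single libraries. Without tame library ID483 they were -0.032 and 10, and without ID485 they were -0.043 and 10. The latter count was 30 without tame library ID541 and 34 without aggressive library ID536.

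No member separated the lines in the forebrain: all 10 tame libraries lay below the 12 aggressive ones in 0 members and 0% of genes, and above them in 0 members and 0% of genes. The member with the smallest p-value among those lower in tame forebrain was ENSCAFG00000003045. It ran from 41.2 through a median of 53.2 to 59.3 CPM in tame and from 44.3 through 68.4 to 81.8 CPM in aggressive foxes, ranges that overlap. Tame over aggressive was -0.32 log2 units (SE 0.094; adjusted p = 0.246 by edgeR). On the other side, ENSCAFG00000011345 ran from 26.1 through 43.4 to 55.1 CPM in tame and from 27.3 through 39.04 to 46.6 CPM in aggressive foxes, or 0.17 log2 units higher in tame (SE 0.11; adjusted p = 0.515 by edgeR).

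Single tame forebrain libraries did differ in the level of the members. The median member stood at -0.39 log2 units from the aggressive forebrain mean in ID483, -0.26 in ID485 and -0.18 in ID482, and at 0.17 in ID541. In ID483, 94.5% of the members were below the aggressive mean. Genes at large were also low in the same libraries, by less. The median of all genes with the minimum cortex level was -0.076 in ID483, -0.054 in ID485, -0.028 in ID482 and -0.0056 in ID541. The aggressive forebrain libraries ran from -0.16 in ID540 to 0.18 in ID595. The members took 2.39% ± 0.257 of the counts of tame forebrain libraries (SD, n = 10), and 2.49% ± 0.174 of those of aggressive ones (SD, n = 12), a difference smaller than either spread.

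Some forebrain identifiers end in the same 2 digits as the shifted cortex libraries, though the labels do not say that they come from the same foxes. Shifted library ID190 had no such counterpart among the forebrain libraries analysed. Tame forebrain libraries ID482, ID486, ID487 and ID491 had member medians of -0.18, -0.064, -0.0069 and -0.046. The other 6 tame forebrain libraries ran from -0.39 to 0.17, a range that holds all 4. None of the 22 forebrain libraries had a member median as low as the highest shifted cortex library, ID186 at -2.57.

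**Figure D4:**
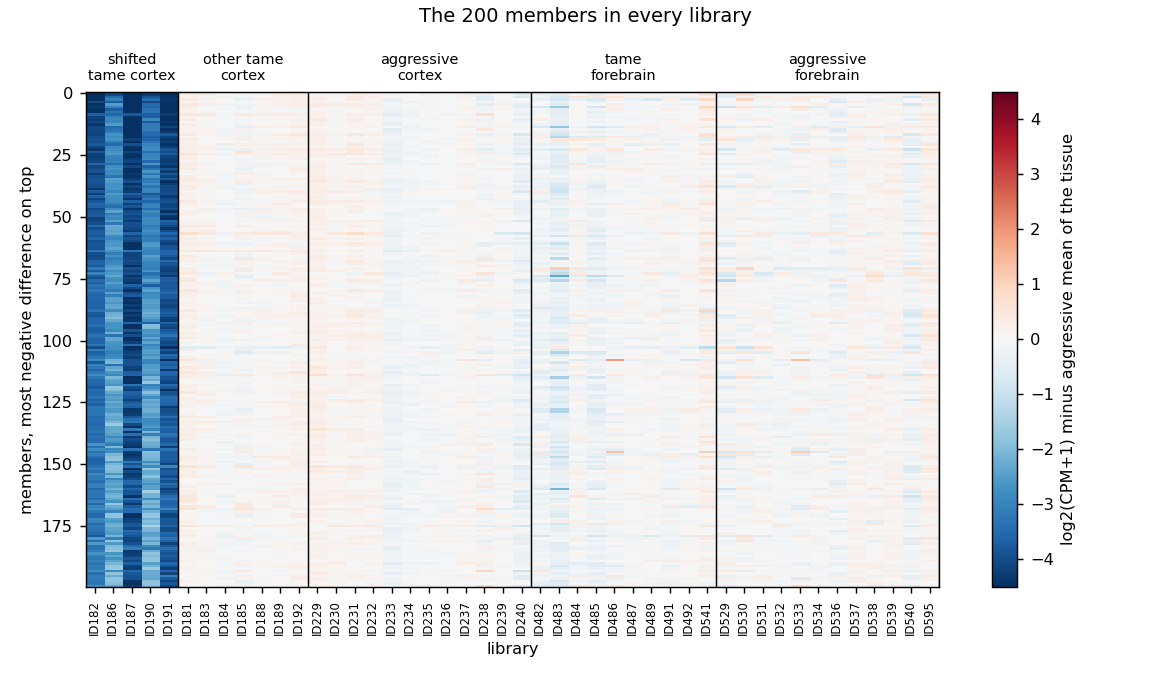
Heat map of log2(CPM+1) minus the mean of the aggressive libraries of the same tissue (colour) for the 200 members (rows, most negative difference on top) in 46 libraries (columns, grouped). The 5 shifted cortex columns are deep blue, with ID186 and ID190 paler than ID187, and the columns of the other 41 libraries are mostly close to 0.

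The regions were compared within aggressive foxes, which kept tame cortex out of the fit. The aggressive cortex libraries in this fit also set the minimum level. In those libraries the median level was 89.4 CPM over the members and 47.9 CPM over all genes with the minimum level. The background shares and medians below are not matched for level, and the part of level in the differences was not tested. Of 200 members, 139 (69.5%) differed between the 12 forebrain and the 12 cortex libraries at an adjusted p of 0.05, close to the 68.5% of all 12641 tested genes and the 69.9% of tested genes with the minimum level. Members lower in forebrain numbered 103 (51.5%), against 32.6% of all tested genes and 38.5% of those with the minimum level. Members higher in forebrain numbered 36 (18%), against 35.9% and 31.4%. Under upper-quartile scaling 82 members (41%) were lower and 51 (25.5%) higher, against 30.6% and 40.8% of tested genes with the minimum level under that scaling. Each tissue was counted in its own table, so a difference between the tables cannot be told apart from one between the tissues.

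The log2 fold change of forebrain over cortex had a median of -0.18 over the members, from -2.82 to 1.55, and of -0.030 over the tested genes with the minimum level. With upper-quartile scaling these medians were -0.086 and 0.061. Its size was under 0.5 in 132 members (66%), against 72.7% of the tested genes with the minimum level. Members called and at least 2-fold lower in the forebrain numbered 22 (11%), against 6.54% of those tested genes, and members called and at least 2-fold higher numbered 2 (1%), against 2.59%.

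ENSCAFG00000006819 had the smallest p-value of the members lower in the forebrain. It ran from 136 through a median of 182.997 to 210.2 CPM in aggressive forebrain and from 292 through 355 to 405 CPM in aggressive cortex, with no overlap. Forebrain over cortex was -1.09 log2 units (SE 0.062; adjusted p = 4.77e-14 by edgeR). In the shifted cortex libraries its levels of 18.2 to 59.6 CPM were below both.

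ENSCAFG00000007343, among the most abundant members, ran from 348 through 414 to 528.8 CPM in aggressive forebrain and from 669 through 782 to 902 CPM in aggressive cortex. These ranges did not overlap either, and forebrain over cortex was -1.07 log2 units (SE 0.064; adjusted p = 1.39e-13 by edgeR). It stood at 28.2 to 75.9 CPM in the shifted libraries.

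Of the members higher in the forebrain, ENSCAFG00000004023 ran from 113 through 132 to 146 CPM in aggressive forebrain and from 62.01 through 69.9 to 94.997 CPM in aggressive cortex. Forebrain over cortex was 0.69 log2 units (SE 0.060; adjusted p = 1.41e-10 by edgeR), and its ranges did not overlap. ENSCAFG00000010292 ran from 109.5 through 151 to 207 CPM in aggressive forebrain and from 22.7 through 45.6 to 91.4 CPM in aggressive cortex, or 1.55 log2 units higher in forebrain (SE 0.14; adjusted p = 3.30e-10 by edgeR). In the shifted cortex these 2 genes stood at 1.65 to 11.2 CPM and at 2.99 to 8.66 CPM. Members of either direction between the regions were thus low in the same 5 libraries, as the choice requires.

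**Figure D5:**
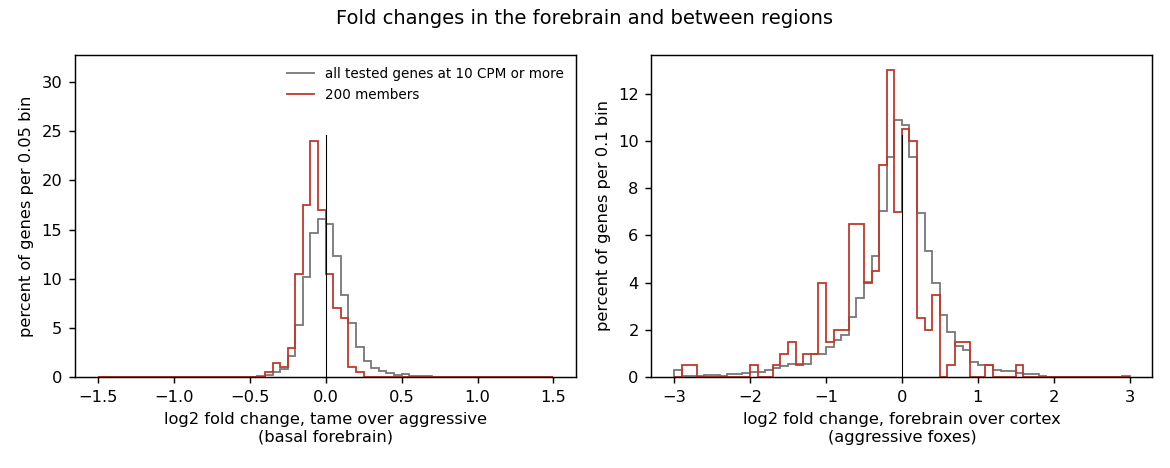
Percent of genes (vertical axis) by log2 fold change (horizontal axis) of tame over aggressive foxes in the basal forebrain on the left and of forebrain over cortex in aggressive foxes on the right, for the 200 members in red and all tested genes with at least 10 CPM in aggressive cortex in grey. The member medians are -0.065 and -0.18.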

How the data were processed

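RNA-seq of 46 libraries was analysed from 2 tables of estimated counts per gene that the authors deposited, 1 per tissue, with dog gene identifiers per the file headers. The submitters' processing notes name the build canFam3 and CASAVA 1.8.2, FastQC, Trimmomatic, BWA, bedtools and edgeR, with no role or order; further steps are not given in the sources used here. Of the values, 4.36% (cortex) and 4.43% (forebrain) were not whole numbers; counts were rounded for the tests and left as deposited for CPM.

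Members were found from log2(CPM+1) on the deposited column sums. Tests used edgeR 4.0.16 in R 4.3.3: filterByExpr (minimum count 10), TMM, robust quasi-likelihood F-test, 1 term, Benjamini-Hochberg adjustment over all genes tested, threshold 0.05. The SE is the log2 fold change over the square root of F. Alternatives used DESeq2 1.42.0, limma 3.58.1, other scalings and filters, left-out libraries and other member rules. The scripts were tested on simulated data. The members, lists and tests were chosen with earlier results of these data known. Genes were named by rule: the 2 most negative differences, and per test the 2 members with the smallest p-values past the threshold in each direction, or 1 where none passed. The 9 fixed gene lists and the markers could not be used without gene symbols. Precision is given as the SD or range over libraries, as the SE for fold changes, and as Wilson intervals for the counting error of shares.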

Additional observations from a re-analysis of the deposited data

Results flagged for a closer look

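In the 10 tame forebrain libraries, ENSCAFG00000003549, the member with the second most negative cortex difference, stood at 115 CPM in library ID541, where the next highest library had 84.02 CPM, a gap of 0.520 of the whole range. This check was made on 10 quantities in tame forebrain and singled out 1 of them; by chance it picks about 1 group in 20.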

How the results depend on the processing

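The count of members called between the lines in the forebrain was 0 under all alternatives, the 22 fits that each left out 1 library included. Between the regions it was 133 to 142 under other scalings, filters and tests, and 134 to 144 over 24 fits that each left out 1 library. With the last 2 identifier digits as a replicate block over 11 aggressive pairs it was 149, against 139 in the same libraries without the block, a fit chosen after seeing the data. Deviations of these pairs correlated from 0.027 to 0.29, 10 of 11 over 0.1, and 7 of 11 correlated best with their own number, a hint of pairing in the data. The labels do not state it and 1 pair missed 0.1, so the fit without the block is the one reported. Other rules kept 87.5% (medians), 92% (pseudocount 0.5), 96.5% (minimum of 20 CPM), 97.5% (TMM) and 100% (minimum of 5 CPM) of the 200 members, and 90.5% to 99% when 1 tame library was left out. The median difference was -3.61 to -3.17 without 1 library. The median correlation of members in aggressive cortex was 0.57 with TMM and 0.59 by rank. In the forebrain, left-out libraries, a choice made after seeing the data, gave 0.30 to 0.39 in aggressive and 0.43 to 0.62 in tame foxes. No result for the members reversed under these alternatives. Upper-quartile scaling moved their median log2 fold change between the regions from -0.18 to -0.086. The median of all tested genes with the minimum level changed sign under it, from -0.030 to 0.061. Low counts in the shifted libraries limit how exactly single falls can be given.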
